A study of Mus musculus with 4 samples.

Results

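Zfp-named zinc finger genes were followed in Myc-CaP cells, a line of mouse prostate cancer cells of FVB strain, Hi-Myc transgenic. The members were chosen by symbol, biotype and level: protein-coding genes whose symbol is Zfp and a number, without Zfp36, with a CPM (the count scaled to a fixed library total) that averaged at least 5 over the libraries. They were 180 of 391 genes with such a symbol. Of the other 211, 87 had a mean CPM from 1 to 5 and 124 were below 1, of which 43 had no count in any library. The members were also 180 of the 9385 protein-coding genes at that level, and the other 9205 served as the background.

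RNA-seq was run on 4 groups, with 1 library each. Cells with stably introduced hairpins against the kinase FAK (gene Ptk2), written shFAK, received vehicle or 10 µM norepinephrine for 24 h. Cells with a negative control hairpin, written shNC, received the same. All groups share the Hi-Myc, FVB line background. Each library came from a single culture of a single line per hairpin, so every ratio below compares 2 libraries and has no replicate check. In bulk RNA, fewer cells expressing a gene and less RNA per cell cannot be told apart.

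Total counts were 23410486 to 29948640 per library. Ptk2 had vehicle and norepinephrine counts of 3547 and 3158 in shNC and 1294 and 1248 in shFAK, so shFAK held 40.8% of the scaled shNC level with vehicle and 43.9% with norepinephrine. Of the prostate luminal markers reported here, Hoxb13 was at a mean CPM of 43.6 and Krt8 at 3.76, while Epcam, Cdh1 and Krt18 were below 1 CPM in every library. Krt8 had 153 and 165 counts in shNC and 50 and 48 in shFAK, and its part in the hairpin results below was not tested. Of the leukocyte markers reported here, Cd68 had 24 to 36 counts per library, and Ptprc and Cd3e had 0 to 1. Of the fibroblast markers, Pdgfra had 276 and 198 counts in shNC and 326 and 299 in shFAK (mean CPM 10.4), Pdgfrb and Thy1 had 0 to 2, and Dcn and Lum had 0. The part of Pdgfra or Cd68 in the results was not tested.

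Zinc fingers of the C2H2 type are short folds held by a zinc ion through paired cysteines and histidines. Proteins with arrays of them read DNA sequence, and the joints between neighbouring fingers share a conserved linker. A large vertebrate family joins such an array to a KRAB domain, which recruits the corepressor TRIM28 and, with it, histone methylation and heterochromatin, often over transposable elements. Other genes with a Zfp symbol have different roles, among them ribosome quality control and splicing.

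One finger with its linker is shown for 3 KRAB members that passed 1.5-fold in at least 1 comparison below. Each stretch codes for the first finger that is followed by the canonical linker, from its first cysteine, in the GENCODE M21 transcript with the longest protein. Capitals mark the 15 linker bases. The sequences are those of the mm10 reference, all from the minus strand.
Zfp871, chr17:32775450-32775533: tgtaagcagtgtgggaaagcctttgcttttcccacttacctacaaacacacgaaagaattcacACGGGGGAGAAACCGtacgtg
Zfp26, chr9:20437980-20438063: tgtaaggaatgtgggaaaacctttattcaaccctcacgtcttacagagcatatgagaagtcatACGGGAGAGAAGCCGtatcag
Zfp81, chr17:33334834-33334917: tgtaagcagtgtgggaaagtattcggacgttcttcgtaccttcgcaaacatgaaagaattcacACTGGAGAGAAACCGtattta
Across these 84 bases Zfp871 and Zfp81, both on chromosome 17, were 75% identical, Zfp871 and Zfp26 64.3%, and Zfp26 and Zfp81 61.9%. In each of these comparisons 13 of the 15 linker bases were the same. Reads from such repeats can map to close relatives as well, and 18 of the 180 members had a near-identical copy elsewhere. None of these 3 genes had one.

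The members divided by their encoded proteins. A pattern for the KRAB domain was found in 70 members and a pattern for the SCAN domain in 7. At least 1 C2H2 finger was found in 174 members, with a maximum of 36 in Zfp142. The 6 members in which the letter pattern found none were Zfp703, Zfp330, Zfp365, Zfp185, Zfp839 and Zfp503. A finger of unusual spacing would be missed by the pattern, so this does not show that all of them lack one. Zfp185 is a LIM domain protein of the actin cytoskeleton, so the name does not fix the protein class.

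The KRAB members were expressed at a lower level and had longer arrays. Their median CPM was 9.53, against 28.1 in the 110 members without the pattern and 48.3 in the other protein-coding genes. Their median number of fingers was 12, against 7, and of canonical linkers 6.5, against 1. Median transcript GC content was 42.5% with the pattern and 49.3% without it, and median gene length, the exonic bases per gene, was 4807 and 5522. These are descriptions of the members, and a mean CPM of 5 was itself a condition for membership.

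**Figure D1:**
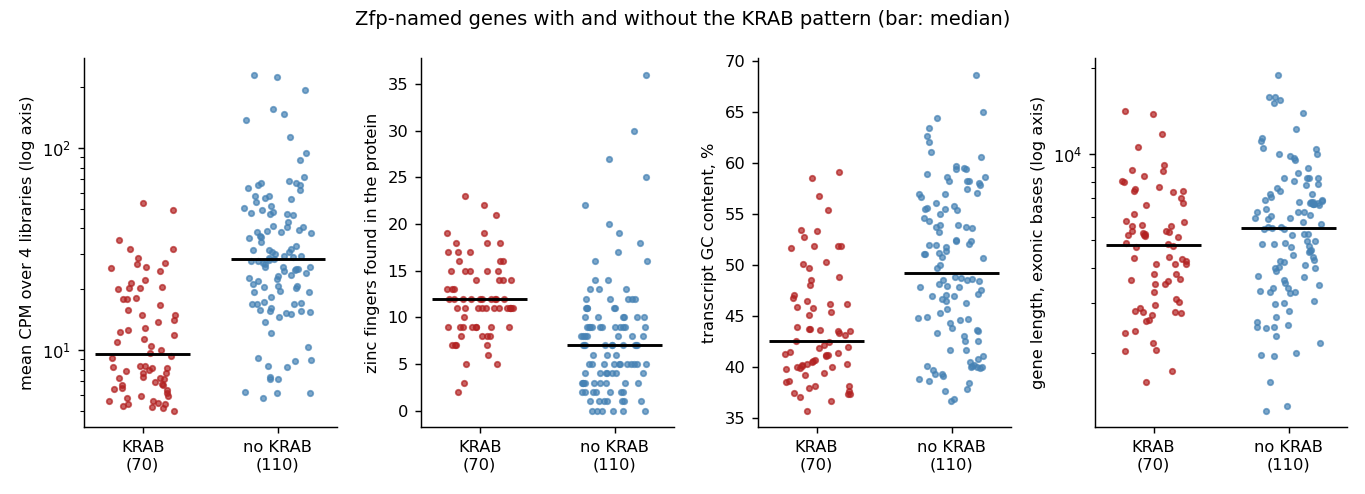
Mean CPM over the 4 libraries (log axis), C2H2 fingers found in the protein, transcript GC content and gene length (log axis) for the 70 members with and the 110 members without the KRAB pattern, 1 point per gene and a bar at the median. The KRAB members sit lower in CPM and GC content and higher in finger number.

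Chromosome 7 held 40 of the members (22.2%), against 6.82% of the other genes. Chromosome 17 held 18 (10.0%), against 4.68%, and chromosome 8 held 15 (8.33%), against 5.58%. Within 500 kb of another member lay 90 members, of which 51 had the KRAB pattern, while 19 of the 90 lying apart had it.

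On the TPM scale, in which counts are divided by gene length and then by their library sum, the members spanned 1.37 to 147 with a median of 11.5. Zfp706, a small protein known as a repressor of Klf4 in stem cells, was the highest, at 145 TPM with vehicle and 141 with norepinephrine in shNC, and 150 and 151 in shFAK. It has 2 near-identical copies, so its level is uncertain. Zfp598, a ubiquitin ligase that marks collided ribosomes, was at 107 to 124 TPM. Zfp622, a factor in maturation of the large ribosomal subunit, was at 103 to 123 TPM, lowest in shNC vehicle. Zfp513 (93.5 to 125), Zfp428 (73.1 to 104) and Zfp692 (80.8 to 85.5) came next. None of these 6 carried the KRAB pattern. At the edge of the rule, Zfp661 (mean CPM 5.01), Zfp780b (5.17) and Zfp958 (5.22) were just inside, and Zfp472 (4.93), Zfp90 (4.89) and Zfp182 (4.87) just outside.

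The first comparison asked how norepinephrine changed the members in control cells. Of the 180 members, 0 were called higher, against 0.778% of all 9385 genes, and 6 were called lower, against 1.58%. A call needed a ratio of at least 1.5-fold and a 99% counting interval that left out 0 on the log2 scale. The 6 were Zfp871, Zfp292, Zfp800, Zfp507, Zfp26 and Zfp609. The median log2 ratio of the members was -0.10, and of the other genes 0.00 to 2 decimals.

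Zfp871, a KRAB protein with 15 fingers found, moved furthest in this comparison. It lies on chromosome 17 (mm10, 32771236 to 32788287, minus strand) and had no near-identical copy and no overlapping exon. In shNC it had 538 counts (18.0 CPM) with vehicle and 186 (6.74 CPM) with norepinephrine. In shFAK it had 1004 (38.6 CPM) and 524 (22.4 CPM). The norepinephrine library was the lower in each line, and each shFAK library was above the shNC library of the same treatment. With norepinephrine it was 2.59-fold lower in shNC (log2 -1.37, 99% counting interval -1.71 to -1.06) and 1.73-fold lower in shFAK (log2 -0.79, interval -0.998 to -0.593). Its ratio was below that of all 200 other genes nearest to it in length in both lines.

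Zfp292, a large protein with 14 fingers found that has been linked to neurodevelopment, had 852 counts with vehicle and 436 with norepinephrine in shNC, and 824 and 582 in shFAK. Counts of later genes are given in this order. The shNC norepinephrine library was the lowest. The log2 ratio with norepinephrine was -0.81 in shNC (interval -1.04 to -0.60) and -0.36 in shFAK (-0.56 to -0.16).

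Zfp800 had 823, 455, 849 and 629 counts in the same order. Its ratios were -0.70 in shNC and -0.29 in shFAK. A near-identical copy (Gm38280) and an antisense gene over its exons make its counts uncertain, since the library kit does not mark strand. Zfp507 had 694, 405, 746 and 540 counts, with ratios of -0.62 and -0.32, and also has antisense genes over its exons.

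Zfp26, a KRAB protein with 22 fingers found, had 497, 291, 531 and 442 counts. Its ratio was -0.62 in shNC and -0.12 in shFAK, where the interval (-0.36 to 0.12) reached across 0. An antisense gene overlaps its exons. Its norepinephrine call in the additive model below was lost with an offset for gene length, unlike those of Zfp871, Zfp292, Zfp800, Zfp507 and Zfp609. Zfp609, a partner of cohesin loading and Integrator factors, had 1995, 1188, 2217 and 1707 counts and ratios of -0.60 and -0.23. Genes of like length were at a median of -0.18 and -0.08. With DESeq2 size factors the ratio of Zfp609 in shNC was -0.58, just short of 1.5-fold. In these 6 genes the shNC norepinephrine library held the lowest CPM of the 4 libraries, while the shFAK vehicle library held the highest. The genes were picked for a low value in that shNC library, so its place as the lowest is not a separate result.

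**Figure D2:**
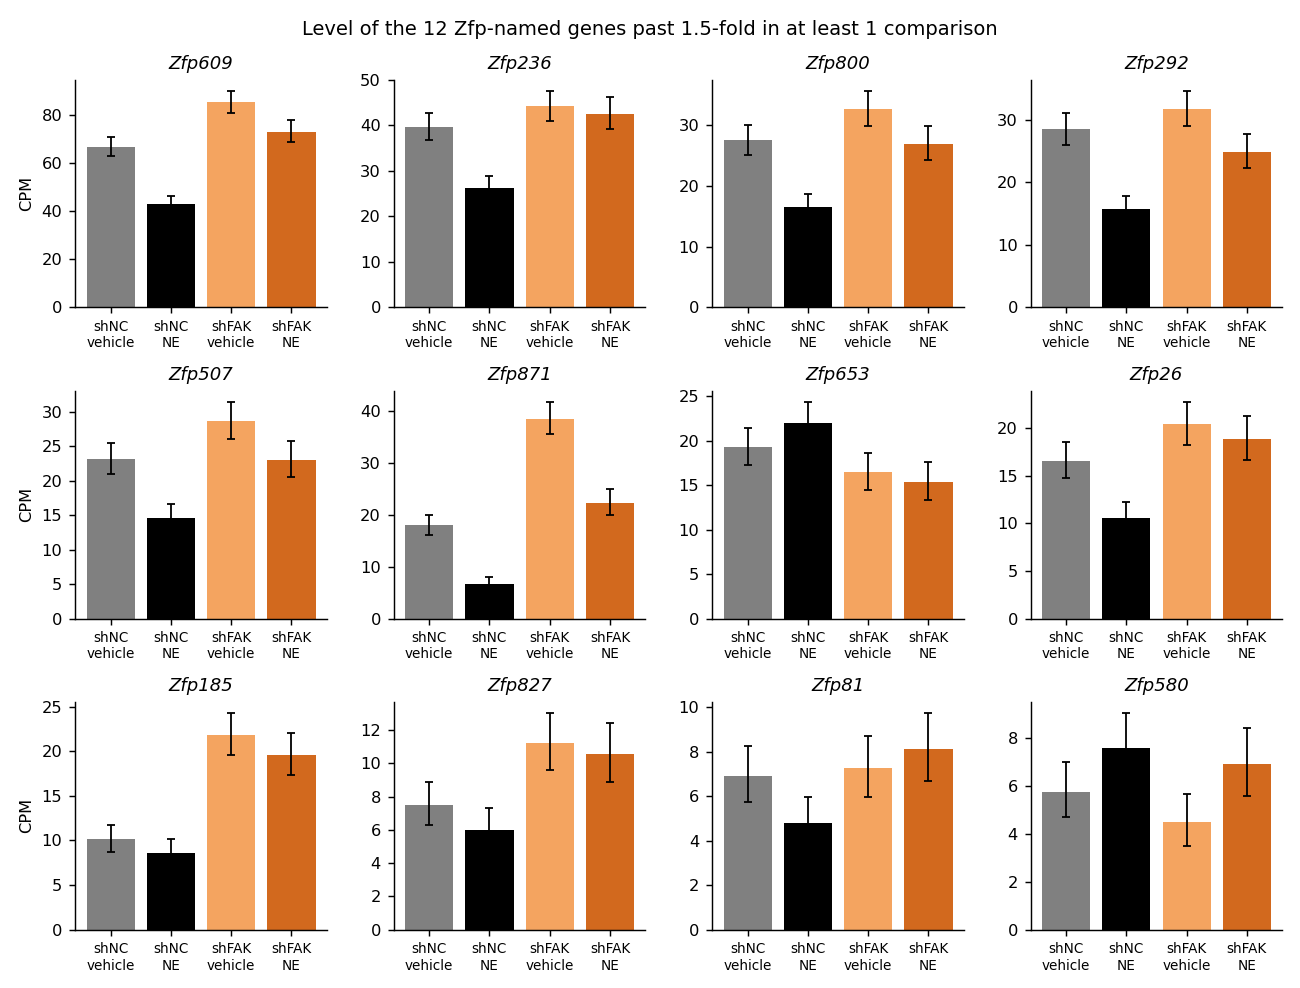
CPM in the 4 libraries for the 12 members called in at least 1 comparison; NE is norepinephrine, bars are single libraries on axes from 0, and error bars are exact 99% Poisson intervals of the counts, which cover counting error only. Zfp871 and Zfp292 are lowest in shNC norepinephrine, and Zfp185 is higher in each shFAK library than in the shNC library of the same treatment.

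In shFAK cells norepinephrine left 1 member called higher, against 0.277% of all genes, and 1 called lower, against 0.0959%. The lower one was Zfp871, so 1 member was called lower in both lines, against 0.0426% of all genes, and 0 higher in both, against 0.0746%. The higher one was Zfp580, a short 3-finger protein gene of 1258 exonic bases on chromosome 7. It had vehicle and norepinephrine counts of 173 and 210 in shNC and of 117 and 162 in shFAK. Both norepinephrine libraries were above the vehicle library of their line once scaled. The log2 ratio was 0.60 in shFAK (interval 0.15 to 1.08) and 0.43 in shNC (0.04 to 0.82), and with a prior count of 10 the first was 0.57 and no longer called. Genes of like length were themselves higher, by a median of 0.09 in shFAK and 0.30 in shNC, so that Zfp580 exceeded them by 0.51 and 0.13.

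The members' ratios moved with gene length, as did those of the other genes. For norepinephrine in shNC the Spearman correlation across genes between ratio and length was -0.55 over the 180 members and -0.64 over the other 9205 genes. In shFAK it was -0.34 and -0.43. The 60 shortest members had a median ratio of 0.11 in shNC, the 60 of middle length -0.13 and the 60 longest -0.23, with 54 of the 60 longest below 0. Genes are not independent replicates, and all these points come from the same libraries.

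Set against the 200 other genes nearest in length, the members' median was -0.03 in shNC and 0.01 in shFAK. In shNC 99 of 180 members were below the median of their like-length genes, and 84 in shFAK. By an interval that left out that median, 19 members were higher in shNC, against 21.7% of all genes, and 23 lower, against 20.6%. The same count in shFAK was 16 higher, against 10.9%, and 12 lower, against 10.8%. The shares of members were 10.6% and 12.8% in shNC and 8.89% and 6.67% in shFAK, below the background each time. The members had lower counts than the other genes, and an interval leaves out a given value less readily at lower counts. The part of this in the shares was not tested.

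Both lines gave the same side of the like-length median for 8 members higher (4.44%), against 7.20% of all genes. There were 7 lower (3.89%), against 7.63%, so both shares of the members were below the background. The 8 were Zfp64, Zfp410, Zfp219, Zfp444, Zfp651, Zfp821, Zfp637 and Zfp503, none with the KRAB pattern. The 7 were Zfp871, Zfp800, Zfp292, Zfp507, Zfp609, Zfp445 and Zfp160, 3 of them with the KRAB pattern. KRAB members had a lower median CPM than the other members (9.53, against 28.1), and intervals are wider at lower counts. The part of this in the numbers of KRAB members was not tested. Zfp410, known for its control of the chromatin remodeller gene Chd4, had 1369, 1214, 1221 and 1215 counts. Its ratios of -0.02 and 0.14 were 0.26 and 0.23 above those of genes of its length. Zfp503, a corepressor of the NET family, had 144, 192, 191 and 243 counts and ratios of 0.56 and 0.49. These names were listed after their values were seen.

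**Figure D3:**
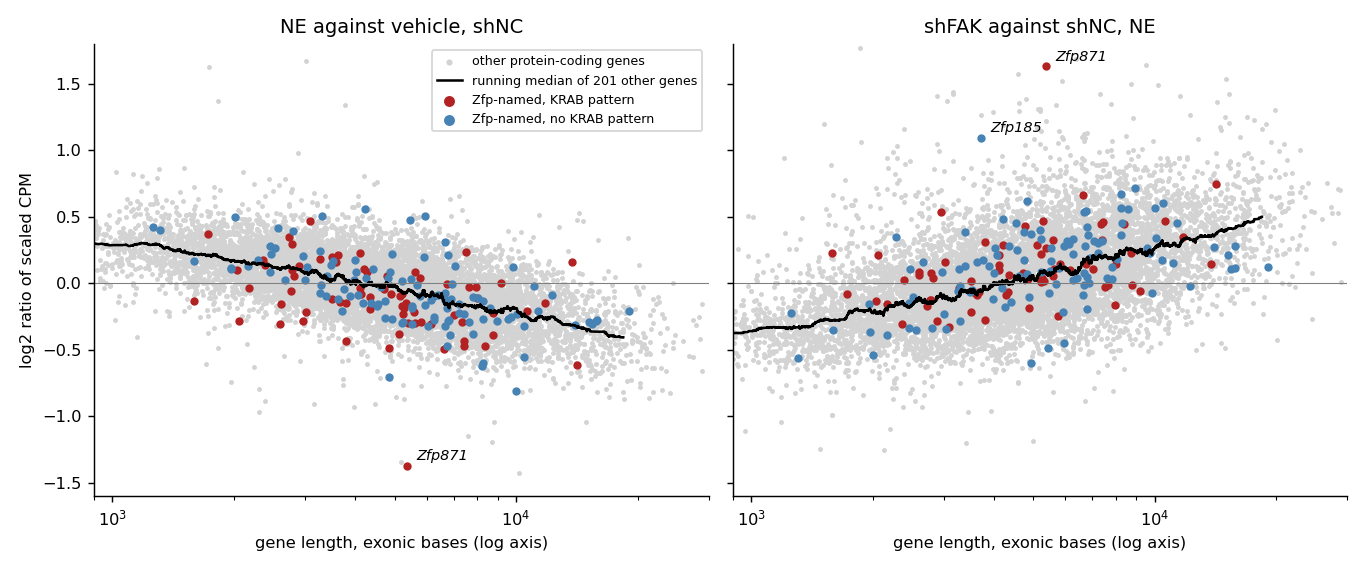
Log2 ratio against gene length in exonic bases (log axis) for norepinephrine (NE) against vehicle in shNC and for shFAK against shNC in norepinephrine; grey points are other protein-coding genes, some of which lie beyond the axes, coloured points are members with and without the KRAB pattern, and the line is a running median of 201 other genes. The members' points follow the slope of the line, with Zfp871 at -1.37 and 1.63 and Zfp185 at 1.09 apart from it.

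The members' ratios in one line also tracked those in the other. The 2 norepinephrine ratios share no library, and across the 180 members their Pearson correlation was 0.68 and their Spearman correlation 0.64. In the other genes these were 0.61 and 0.66. With the like-length medians taken off they were 0.64 and 0.58 in the members. Without Zfp871 the Pearson correlation was 0.64. The sign was the same in 130 of 180 members (72.2%) and in 75.3% of the other genes.

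The hairpin comparison set shFAK against shNC within each treatment. In vehicle 2 members were called higher in shFAK, against 2.56% of all genes, and 0 lower, against 0.735%. In norepinephrine 8 were called higher, against 6.41%, and 1 lower, against 1.69%. These shares of the members, 1.11% and 4.44% higher, were below the background. Zfp871 and Zfp185 were called higher in both treatments, against 2.02% of all genes, and 0 lower in both, against 0.437%.

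Zfp871 was 2.08-fold higher in shFAK with vehicle, a log2 ratio of 1.06 (interval 0.86 to 1.26). With norepinephrine it was 3.10-fold higher, a log2 ratio of 1.63 (1.33 to 1.97). Zfp185, the LIM domain gene on the X chromosome (72987339 to 73031543, plus strand), had vehicle and norepinephrine counts of 305 and 237 in shNC and of 568 and 458 in shFAK. Each shFAK library was above the shNC library of the same treatment. The ratio was 2.07-fold in vehicle (log2 1.05, interval 0.79 to 1.33) and 2.14-fold in norepinephrine (log2 1.09, 0.80 to 1.41). Norepinephrine left it at -0.21 in shNC and -0.17 in shFAK, with intervals that reached across 0. Genes of like length were at -0.04 and -0.06 between the lines, so Zfp185 exceeded them by 1.09 and 1.16.

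In norepinephrine the other members called higher in shFAK were Zfp26 (0.75), Zfp827 (0.72), Zfp609 (0.67), Zfp81 (0.67), Zfp800 (0.62) and Zfp236 (0.60), as log2 ratios. Their ratios in vehicle were 0.25, 0.53, 0.31, 0.03, 0.20 and 0.11. Genes of like length were themselves higher in norepinephrine, by a median of 0.22 for Zfp609 and 0.32 for Zfp236. Zfp609 exceeded them by 0.45 and Zfp236 by 0.28. Like-length values of the others are not given here. In the additive model below, the hairpin calls of Zfp26 and Zfp236 were lost with an offset for gene length. Those of Zfp827, Zfp609 and Zfp800 were kept. Zfp236, a protein with 30 fingers found, is named beyond the rule for named genes, to complete the count. Zfp827, known for bringing the NuRD complex to telomeres in cells that lengthen them by recombination, had 225, 166, 292 and 247 counts. Its 2 shFAK libraries had the higher CPM, 11.2 and 10.6, against 7.51 and 6.01 in shNC. These norepinephrine ratios share the shNC norepinephrine library with the norepinephrine comparison in shNC, in which Zfp26, Zfp609 and Zfp800 were called lower.

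Zfp653 was the member called lower in shFAK. Its vehicle and norepinephrine counts were 577 and 607 in shNC and 429 and 360 in shFAK. Its log2 ratio was -0.60 in norepinephrine (interval -0.86 to -0.35) and -0.27 in vehicle (-0.51 to -0.03). Scaled by library size alone the first was -0.51 and not called, and its exons overlap those of other annotated genes.

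Here too the ratios moved with gene length. The Spearman correlation across genes was 0.24 in vehicle and 0.47 in norepinephrine over the members, and 0.38 and 0.56 over the other genes. The median ratio of all members was 0.07 in vehicle and 0.11 in norepinephrine. Set against like-length genes it was 0.00 to 2 decimals and 0.04. By an interval that left out the like-length median, 28 members were higher in vehicle, against 22.2% of all genes, and 17 lower, against 23.4%. In norepinephrine 35 were higher, against 25.5%, and 22 lower, against 27.0%. The hairpin ratios of the 2 treatments share no library. Their Pearson correlation across the members was 0.74 and their Spearman correlation 0.70, against 0.81 and 0.81 in the other genes.

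**Figure D4:**
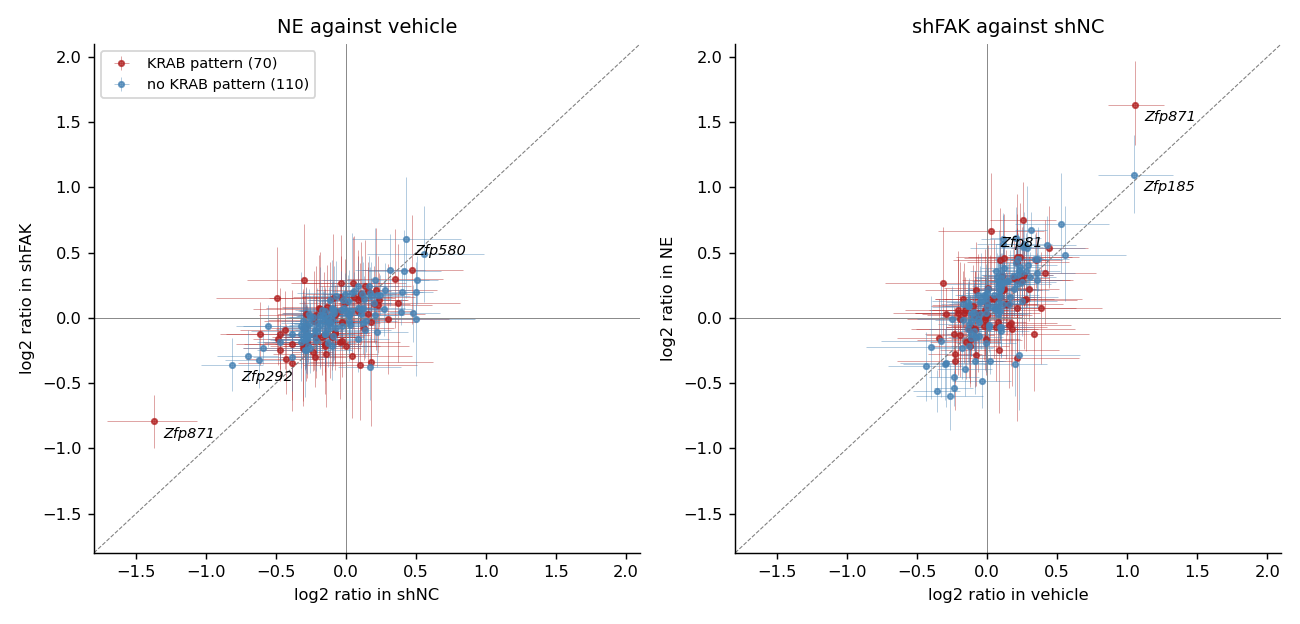
Log2 ratios of the 180 members, for norepinephrine (NE) against vehicle in shNC and in shFAK, and for shFAK against shNC in vehicle and in norepinephrine; thin lines are 99% counting intervals and the dashed line marks equal ratios. Zfp871 lies apart in both panels, at -1.37 and -0.79 and at 1.06 and 1.63, and Zfp185 in the hairpin panel at 1.05 and 1.09.

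The difference of the 2 norepinephrine responses was above 1.5-fold with an interval that left out 0 in 1 member, against 0.405% of all genes, and in the opposite direction in 0, against 0.320%. That member was Zfp81, a KRAB protein with 11 fingers found. Its vehicle and norepinephrine counts were 207 and 132 in shNC and 189 and 190 in shFAK. The shNC norepinephrine library was the lowest, at 4.78 CPM, and the other 3 lay between 6.91 and 8.12 CPM. Its ratio was -0.49 in shNC and 0.15 in shFAK, a difference of 0.64 (99% interval 0.08 to 1.203). For Zfp871 the difference was 0.58 (0.20 to 0.95), just short of 1.5-fold, and for Zfp292 it was 0.45 (0.16 to 0.75).

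A model with a hairpin term and a treatment term, and no interaction, was tested by edgeR's quasi-likelihood method over all 4 libraries and 12351 genes. Its p-values assume 1 common norepinephrine response in both lines and do not measure spread between cultures. With a Benjamini-Hochberg adjusted p under 0.05, norepinephrine had 8 members higher, against 5.81% of protein-coding genes at this level, and 16 lower, against 8.95%. Zfp871 changed by -1.04 on the log2 scale (edgeR adjusted p = 3.3e-20) and Zfp292 by -0.58 (8.3e-07). Zfp800, Zfp507, Zfp609, Zfp26, Zfp160, Zfp445, Zfp518a and Zfp317 also fell. Among those that rose, Zfp503 had the largest change, 0.53 (edgeR adjusted p = 0.0040), then Zfp580, 0.51 (0.011), and Zfp707, 0.43 (0.024), the single KRAB member among the 8. With an offset for the trend of each library with gene length, 14 of the 24 calls were kept, 5 higher and 9 lower. Zfp580 (0.35, edgeR adjusted p = 0.11), Zfp707 (0.37, 0.060), Zfp518a (-0.26, 0.062) and Zfp26 (-0.14, 0.36) were among the 10 lost. With a DESeq2 Wald test no member was called for norepinephrine, higher or lower. DESeq2 gave an adjusted p to 48 of the 180 members only, and had 4 higher and 10 lower at an unadjusted p under 0.05.

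For the hairpin the same model had 41 members higher in shFAK, against 21.9%, and 10 lower, against 17.8%. Zfp871 rose by 1.30 on the log2 scale (edgeR adjusted p = 5.2e-33) and Zfp185 by 1.08 (5.3e-21). Zfp827 (0.62), Zfp503 (0.53), Zfp318 (0.49), Zfp809 (0.49), Zfp609 (0.49) and Zfp26 (0.49) followed. Zfp428 (-0.46), Zfp653 (-0.43) and Zfp414 (-0.40) were the lowest. DESeq2 called 6 higher and 2 lower, with Zfp871 at an adjusted p of 2.2e-09 and Zfp185 at 7.2e-06. With the gene length offset edgeR had 26 higher and 22 lower and kept 31 of the 51 calls. The share of higher calls thus moved with that scaling. Zfp26 (0.20, edgeR adjusted p = 0.089) and Zfp236 (0.12, 0.23) were among the 20 lost. For the DESeq2 and length-offset fits of either effect, the share over all genes was not computed, so these counts have no background beside them.

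A list of 48 Zfp genes with known roles held 41 members, and 45 had a mean CPM of at least 1. Its median log2 ratio was -0.23 with norepinephrine in shNC and -0.09 in shFAK, and 0.10 and 0.21 for the hairpin in vehicle and norepinephrine. The medians over all members were -0.10, -0.02, 0.07 and 0.11. The list was not set against genes of like length. The 60 longest members alone had medians of -0.23 with norepinephrine in shNC and 0.23 for the hairpin in norepinephrine. With norepinephrine in shNC, 0 of the 45 were called higher at 1.5-fold, against 0.778% of the 9385 genes, and 3 lower (Zfp609, Zfp800 and Zfp292), against 1.58%. In shFAK 0 were higher, against 0.277%, and 0 lower, against 0.0959%. For the hairpin in vehicle 1 was higher, against 2.56%, and 0 lower, against 0.735%. In norepinephrine 4 were higher, against 6.41%, and 1 lower, against 1.69%. The 45 reach down to a mean CPM of 1, while these shares are over genes at 5 or more. Zfp750, a regulator of epidermal differentiation at a mean CPM of 1.504, was the one called in vehicle. Zfp521 and Zfp382, both below a mean CPM of 5, were among those called in norepinephrine.

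Of the KRAB members with known targets, 3 are given in full. Zfp57, the KRAB protein that keeps methylation at imprinted loci, had 898, 730, 686 and 542 counts, with hairpin ratios of -0.23 and -0.28. Zfp809, a KRAB silencer of retroviral DNA, had 347, 257, 423 and 337 counts and hairpin ratios of 0.44 and 0.54. Zfp568, a KRAB repressor of a placental Igf2 transcript, had 761, 559, 869 and 686 counts and hairpin ratios of 0.35 and 0.44. In the additive model Zfp57 was lower in shFAK (-0.25, edgeR adjusted p = 0.030), and Zfp809 (0.49, 9.7e-05) and Zfp568 (0.40, 3.7e-04) were higher. None of these 3 reached 1.5-fold in any comparison.

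Of other transcription factors on the list of known roles, Zfp143 had 571, 567, 548 and 487 counts and Zfp384 had 1961, 1661, 1629 and 1540. Neither passed the additive test for norepinephrine or the hairpin. Zfp148, a GC-box binding factor, had 1599, 1194, 1657 and 1291 counts. It was lower with norepinephrine (-0.24, edgeR adjusted p = 0.045) and higher in shFAK (0.24, 0.023), and with the gene length offset neither call was kept (edgeR adjusted p = 0.41 and 0.75). Zfp217, the mouse counterpart of a gene amplified in human carcinomas, had 801, 660, 918 and 729 counts and was higher in shFAK (0.33, edgeR adjusted p = 0.0037).

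The partners through which KRAB proteins act were read from the same table. Of 34 listed corepressor genes, 33 were measured. None was called at 1.5-fold with norepinephrine in either line or for the hairpin in vehicle, where 0.0959% to 2.56% of the 9385 genes were called in a direction. For the hairpin in norepinephrine 1 was higher, against 6.41%, and 1 lower, against 1.69%. The first was Ncor1, a nuclear receptor corepressor, at 0.59, and the second Mbd3, a NuRD subunit, at -0.66. Trim28 itself had 23198, 22960, 17324 and 16914 counts, log2 ratios of 0.14 and 0.11 with norepinephrine and -0.26 and -0.29 for the hairpin. In the additive model 0 of the 33 were higher with norepinephrine, against 5.81%, and 5 lower, against 8.95%. In shFAK 6 were higher, against 21.9%, and 2 lower, against 17.8%.

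Other zinc finger families are shown for comparison only. For norepinephrine in shNC the median log2 ratio was -0.20 over 32 Zbtb genes, 0.02 over 13 Zscan and Zkscan genes, -0.10 over 12 Klf genes and -0.25 over 5 Sp genes. For the hairpin in norepinephrine these were 0.22, 0.11, 0.31 and 0.46. Against like-length genes these families were, in the same order, at -0.07, -0.01, -0.02 and -0.23 for norepinephrine in shNC. For the hairpin in norepinephrine they were at 0.16, 0.13, 0.34 and 0.30 against such genes. The KRAB members had medians of -0.11 and 0.07 in these comparisons and the members without the pattern -0.10 and 0.13. Against like-length genes the KRAB members were at -0.07 and 0.03 and the members without it at 0.00 to 2 decimals and 0.04. The difference between the classes was not tested.

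Because Zfp871 moved furthest, the 250 bases before its start are shown (RefSeq, GRCm38.p6, chr17:32788288-32788537, minus strand, 5′ to 3′). RefSeq promoters were found for 153 of the 180 members. These were searched on both strands for the E-box CACGTG, to which Myc binds, and for the cyclic AMP response element TGACGTCA, both of which read the same on either strand. Capitals mark the E-box.
Zfp871: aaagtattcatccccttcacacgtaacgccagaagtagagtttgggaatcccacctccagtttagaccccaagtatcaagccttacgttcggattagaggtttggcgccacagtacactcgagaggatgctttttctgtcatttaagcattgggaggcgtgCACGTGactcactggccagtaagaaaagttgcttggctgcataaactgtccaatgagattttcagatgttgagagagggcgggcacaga
An E-box was in the promoters of 11 of the 153 members (7.19%), 788 of 7315 other genes (10.8%) and 6.86% of all 27025 genes with a promoter entry. The response element was in 6 members (3.92%), 3.35% of the other genes and 1.77% of all. RefSeq has a further start for Zfp871, and the 250 bases before it (chr17:32787548-32787797) held neither motif. The response element was in neither Zfp871 window. A match is a description of the letters, and no binding was measured here.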

How the data were processed

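The deposited file was a single table of raw counts per gene with each gene's coordinates, length and biotype. The submitters' processing notes name HISAT2 2.0.5, featureCounts 1.5.0-p3 and mm10. No source used here gives the annotation release, whether strand was used, or how reads with several hits were counted. Per the labels' protocols the kit was NEBNext Ultra, which does not mark strand. Columns were assigned to samples by title. The deposited gene length equalled the exon union of GENCODE M21 for 94.3% of shared identifiers.

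From these counts, CPM was the count over the library total, scaled as counts per 1e6, and TPM used the deposited gene length. Pairwise log2 ratios used TMM-scaled CPM with a prior count of 2, and exact 99% Clopper-Pearson intervals of the counts. A call needed at least 1.5-fold and an interval that left out 0. These intervals cover counting error only and have no term for variation between cultures. Amplified reads lacking molecular identifiers are not separate molecules, so even the counting error may be larger than the intervals show. Members had 109 to 7219 counts per library, and the median interval for norepinephrine in shNC was 0.45 wide on the log2 scale. For the difference of responses the 99% interval was a normal approximation on the log scale. Like-length genes were the 200 background genes (protein-coding, mean CPM of 5 or more, not members) nearest in log gene length. The additive model used the quasi-likelihood test of edgeR 4.0.16 in R 4.3.3 on genes with a CPM of at least 1 in at least 1 library, with 1 residual degree of freedom and Benjamini-Hochberg adjustment over 12351 genes.

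Fingers, linkers, KRAB and SCAN domains were found with letter patterns in GENCODE M21 proteins, so a count can miss degenerate copies. A near-identical copy had at least 95% identity over at least 100 bases (minimap2 2.31), and an overlap at least 50 exonic bases, which 58 members had. The pairwise and additive computations were tested on simulated data. Alternatives were other scalings, filters, prior counts, thresholds, member and like-gene definitions and a DESeq2 1.42.0 Wald test. Members and lists were chosen with earlier results of these data known. Named genes were, per comparison, up to 6 called members per direction by size, those called in both lines or treatments, the called difference, the 6 highest by TPM, members of the list of known roles and the 3 on each side of a mean CPM of 5. Genes outside it are named where counts of members are spelled out. Promoters and sequences came from RefSeq and GENCODE M21. Some marker genes are not reported here.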

Additional observations from a re-analysis of the deposited data

Results flagged for a closer look

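Zfp81 was the single member whose responses to norepinephrine differed between the lines past the rule. The response in shFAK minus that in shNC was 0.64 on the log2 scale, with a 99% counting interval of 0.08 to 1.203. Its mean CPM lies under 10, and the interval covers counting error only. With 1 library per group the difference was not tested against variation between cultures.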

How the results depend on the processing

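No paired analysis was possible because the labels give no replicate numbers and each group had 1 library, for which reason no replicate could be left out either. The additive model compares treatments within lines through its hairpin term, with 1 residual degree of freedom. Of 158 summary values tried under alternatives, 122 stayed within 1.5 times the count or inside the 95% interval of the median. That interval was taken across members, which share the same libraries and are not independent replicates, so it served as a yardstick only. Some of these values could hardly move. Medians do not depend on the fold threshold, and library scaling largely cancels in medians against like genes. Of 128 values of called members, 108 kept their call and 20 lost it, 14 of these at the 2-fold threshold, and none changed sign. The settings that only dropped members left each remaining ratio and call as it was, so calls there were kept by construction. Neither these settings nor the 2-fold threshold could change a sign. The tally is thus not a measure of robustness.

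Scaling by library size alone gave 14 members higher and 0 lower for the hairpin in norepinephrine, medians of 0.19 there and 0.11 in vehicle, 3 members with a higher response in shFAK and 5 lower for the additive hairpin effect. TMM without a filter gave 0 higher with norepinephrine in shFAK and a median of -0.065 there. For the hairpin in norepinephrine it gave 3 lower and a median of 0.056, and the difference of responses had 1 lower. A prior count of 10 gave 0 higher with norepinephrine in shFAK. For none of the alternatives was the share over all protein-coding genes at this level computed. The counts of members in this section therefore have no background beside them.

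The 2-fold threshold left 1 lower with norepinephrine in shNC, 0 higher and 0 lower in shFAK, 2 higher and 0 lower for the hairpin in norepinephrine and 0 for the difference of responses. Members at a mean CPM of at least 10 gave 0 higher with norepinephrine in shFAK and 0 for the difference. With like genes taken by length and mean CPM, the hairpin medians against them were -0.031 in vehicle and -0.0064 in norepinephrine.

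In the additive model without a filter, norepinephrine had 4 higher and 10 lower and the hairpin 19 higher. With the gene length offset norepinephrine had 10 lower, and the hairpin 26 higher and 22 lower. At a 1.2-fold test threshold norepinephrine had 0 higher (5 at an unadjusted p under 0.05 in edgeR) and 2 lower, and the hairpin 6 higher and 1 lower. The DESeq2 Wald test gave 0 higher and 0 lower for norepinephrine, with 11 of the 24 edgeR calls given an adjusted p, and 6 higher and 2 lower for the hairpin. Shares over all protein-coding genes at this level were not computed for any of these fits. The cause of these changes was not tested. Depth limits the members of lowest count, whose intervals are the widest.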
